A study of Mus musculus with 110 samples.

Results

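The auxin indole-3-acetic acid (IAA) was tested in a v-Abl transformed mouse pro-B cell line whose CTCF carries a mAID-GFP tag but which has no OsTIR1, the plant receptor that lets auxin trigger the breakdown of a mAID-tagged protein. The comparison holds 16 of the 110 libraries of the series, chosen by title: 4 replicates with IAA and 4 untreated, each with a library called a and a library called b. All cells of this comparison were RAG2-deficient, carried an Emu-Bcl2 transgene, received RAG2 by nucleofection and were held for 4 days in 3 µM STI-571, an Abl kinase inhibitor that arrests v-Abl lines. IAA cells had 500 µM IAA for 6 h beforehand and again throughout the 4 days. The labels do not say whether the tagged line is 1 clone, nor whether replicates are separate cultures, so p-values measure only the spread between these samples. CTCF protein was not measured in these files.

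Each read comes from linear-amplification translocation sequencing (LAM-HTGTS) and joins a bait at the JH4 segment of the Igh locus to a prey site. The 16 libraries hold 1185898 junctions, with 141836 to 192055 per IAA replicate and 107550 to 167608 per untreated replicate. They came from 1 sequencing run, judged by read names, so treatment and run are not mixed. For comparison, the parental line (neither tag nor OsTIR1) and the OsTIR1-only line had 4 replicates per treatment, and the CTCF degron line had 6. In that line 3 libraries titled as IAA, of replicates 4 and 5, carry a treatment label that names no IAA; they were grouped by title, and comparisons with the line are also given without both replicates.

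V(D)J recombination assembles the heavy chain gene in order: a D segment is joined to a JH segment, then a VH segment to the DJ. The RAG endonuclease, loaded at the JH end, cuts at recombination signal sequences (RSS) made of a heptamer, a spacer and a nonamer, and reaches upstream segments as cohesin pulls chromatin past it. CTCF bound between the D and VH segments, at the control region IGCR1, holds back this scanning. Ighd4-1 (DQ52) lies next to JH, and Ighd1-1 (DFL16.1) is the last D segment of the main array. Between them lies the Ighd2 (DSP2) family, along with some D segments of other families.

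The sequences below are those of the D segments on which the results turn, as prey reads show them on the plus strand of chromosome 12 in the authors' hybrid of AJ851868 and mm9. Capitals mark the D core, its start placed by alignment to mm9. The lower-case letters are the RSS that remains on the VH side, starting with its heptamer. At 114705399 the capitals start at 114705398, before the peak of junctions, and hold 18 bases. The other segments shown that are closest to the Ighd2 family hold 17. The first capital at 114705399 may therefore not belong to the core. A joint can lose some of the capital bases. The whole Ighd1-1 end was present in 28.5% to 32.7% of its junctions in a libraries and 26.5% to 30.7% in b libraries. Segments without a clear mm9 symbol are named by their hybrid position, and those shown lie in order from JH.
Ighd4-1: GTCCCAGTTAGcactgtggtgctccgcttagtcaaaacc
D at 114690286: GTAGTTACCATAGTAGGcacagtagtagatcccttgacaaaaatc
D at 114700407: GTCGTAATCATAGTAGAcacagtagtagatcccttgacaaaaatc
D at 114705399: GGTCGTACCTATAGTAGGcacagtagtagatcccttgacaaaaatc
D at 114710077: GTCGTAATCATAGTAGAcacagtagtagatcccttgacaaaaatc
Ighd2-3: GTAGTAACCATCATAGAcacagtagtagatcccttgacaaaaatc
Ighd1-1: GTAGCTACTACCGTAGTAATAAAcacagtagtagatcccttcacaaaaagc
The D segments at 114700407 and 114710077 share every printed letter, and both are closest to Ighd2-4 of mm9 (98.6% identity), so only bases beyond this stretch tell them apart and their separate values are uncertain. Those at 114690286 and 114705399 are closest to Ighd2-8, at 95.7% and 94.9% identity. Ighd1-1 lies at hybrid position 114734544 and at chr12:114720381-114720403 in mm9, Ighd2-3 at 114727777 (chr12:114713611-114713627) and Ighd4-1 at 114673089 (chr12:114668739-114668749).

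The a and b libraries differ in the DNA beside the bait. In mm9 the stretch chr12:114666665-114666705 lies just outside Ighj4 (chr12:114666725-114666778), on the side away from the D segments. The 3 lines give it as read in bone marrow pro-B cells and in the a and b libraries of the tag-only line, with the part that differs in capitals.
bone marrow: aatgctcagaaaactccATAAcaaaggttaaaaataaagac
a libraries: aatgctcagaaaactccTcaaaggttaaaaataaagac
b libraries: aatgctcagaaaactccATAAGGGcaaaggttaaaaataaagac
The a form is 3 bases shorter than the bone marrow form and the b form 3 bases longer. The labels do not say what the letters stand for; both libraries were averaged as 1 replicate. The VH share was higher in the a library in 8 of 8 replicates, with means of 3.91% against 3.24%, and the Ighd1-1 share was higher in 5 of 8, at 62.1% against 61.9%.

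Replicate 1 stood apart from replicates 2 to 4 in both treatments. Junctions more than 500 kb beyond the first used VH, called distal here, were 6.28% of VH junctions in untreated replicate 1 against 24.4% to 30.2% in the others, and 9.0% against 30.9% to 36% with IAA. Untreated parental replicates had 3.4% to 5.24%. Results on VH use are therefore also given without both replicates numbered 1. Same-numbered replicates deviated together from their group means over the 74 tested segments (r of 0.85, 0.70, 0.65 and 0.50 for numbers 1 to 4; mean of −0.12 between different numbers). The replicate number was used as a block in a second fit. That fit tests the same segments, so this check is not independent ground for its calls. Same-numbered replicates shared 1 to 3 identical VH junctions, and differently numbered ones of opposite treatment 0 to 5 (medians 2.5 and 1), out of 2797 to 4569 distinct ones per replicate. Only VH junctions in plus orientation with at least 8 bases between bait and prey entered this count. Identical here means the same position, bait end, bases between bait and prey, and library letter.

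At the D segment Ighd1-1, where most joints of this line lie, fewer junctions were found with IAA. Its share of all junctions in replicates 1 to 4 was 59.5%, 71.4%, 66.9% and 66.4% untreated, and 50.3%, 63.6%, 58.0% and 59.9% with IAA. It was lower in 4 of 4 pairs, with differences of −9.27 to −6.46 percentage points, while the groups as wholes overlapped. The means were 66.0% ± 4.88 and 58.0% ± 5.63 (SD, n = 4 each), a difference of −8.08 points (97.1% interval −21.1 to 4.09; two-sided exact permutation test, p = 0.0857; Benjamini-Hochberg 0.610 over 16 measures). In the fit with the replicate block Ighd1-1 fell by 0.19 on the log2 scale (SE 0.02, limma adjusted p = 9.33e-07).

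The other D segments together, without Ighd4-1 and Ighd1-1 and including the few beyond Ighd1-1, had a higher share with IAA. They held 29.3%, 18.2%, 21.1% and 21.6% of junctions untreated and 38.2%, 25.4%, 28.9% and 27.5% with IAA. The share was higher in 4 of 4 pairs, by 5.89 to 8.87 points, and replicate 1 was the highest of its group in both treatments. The mean difference was 7.43 points (interval −3.92 to 19.997; exact permutation p = 0.114). Ighd4-1, the segment nearest JH, had 4.67%, 5.10%, 4.96% and 5.17% untreated and 4.12%, 5.55%, 5.73% and 5.21% with IAA. It was higher in 3 of 4 pairs, and the difference of 0.18 points lay within the replicate spread (interval −1.05 to 1.07; exact permutation p = 0.629). Leaving out single replicates moved that difference between −0.02 and 0.52 points. The highest value was without IAA replicate 1, its lowest replicate (exact permutation p = 0.0286, the smallest that 3 against 4 allow). With identical junctions counted once the difference was negative.

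**Figure D1:**
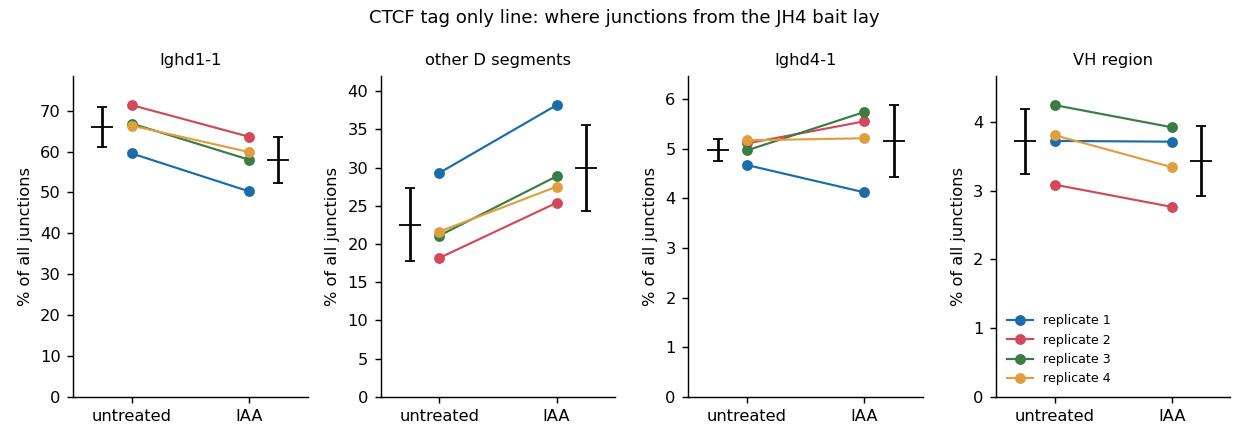
Percent of all junctions at Ighd1-1, at the other D segments, at Ighd4-1 and in the VH region (y axes, from 0) in untreated and IAA replicates of the CTCF-tag-only line; lines join same-numbered replicates, and black marks show mean ± SD (n = 4). Ighd1-1 is lower and the other D segments are higher with IAA in each of the 4 pairs, while the groups overlap.

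The measures were 16 in all, and 0 passed at p under 0.05; the smallest p was 0.0857, where 4 against 4 replicates allow 0.0286. All 16 had overlapping groups, and 10 had the same sign in 4 of 4 pairs, 6 higher and 4 lower with IAA. The exact sign-flip test of 4 pairs cannot give a p below 0.125, which these 10 reached.

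Single segments were tested with limma on junction tallies. Without the block, 0 of 74 segments passed at an adjusted p under 0.05 (0.0% called; 4 at an unadjusted p under 0.05; 0 also with limma-trend). With the replicate block 13 of 74 passed, a background of 17.6%: 11 higher (14.9%) and 2 lower (2.7%). Of 17 tested D segments between Ighd4-1 and Ighd1-1, 10 rose and 0 fell in that fit, with a median log2 change of 0.37 against 0.14 over all tested segments. Of 55 VH segments, Ighv1-67 rose and Ighv5-2 fell. These changes are relative to all junctions of a library, so that a lower share at Ighd1-1, with more than 50% of junctions, and higher shares elsewhere are not separate measurements.

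The D segment at 114700407 had 1.40%, 0.99%, 1.14% and 1.21% of junctions untreated and 2.22%, 1.63%, 1.64% and 1.83% with IAA. Every IAA replicate lay above every untreated one. Its log2 change was 0.63 (SE 0.06, limma with the replicate block, adjusted p = 2.95e-07), and the same size without the block did not pass (SE 0.18, limma adjusted p = 0.176). The D segment at 114705399 had 2.11%, 1.53%, 2.21% and 2.32% untreated and 3.27%, 2.64%, 3.28% and 2.94% with IAA, and its groups did not overlap either (log2 0.57, SE 0.06, adjusted p = 9.33e-07 with the block). The D segment at 114710077, whose printed sequence equals that of 114700407, had 0.81% to 1.09% untreated and 1.11% to 1.63% with IAA (log2 0.47, SE 0.06). These 3 D segments were the only tested segments whose groups did not overlap, 3 of 74 or 4.05%.

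The D segment at 114690286, the most used of the group, had 7.74%, 4.43%, 5.22% and 5.26% untreated and 9.47%, 6.72%, 7.67% and 7.07% with IAA. It was higher in 4 of 4 pairs although untreated replicate 1 lay above the 3 other IAA replicates (log2 0.46, SE 0.05, limma with the replicate block, adjusted p = 5.50e-07). Ighd2-3, the frequently used D segment nearest to Ighd1-1, had 7.24%, 4.10%, 4.04% and 4.31% untreated and 9.25%, 5.14%, 5.02% and 5.21% with IAA. Replicate 1 was the highest here in both treatments, and the rise was 0.32 on the log2 scale (SE 0.04, adjusted p = 4.08e-06 with the block). The remaining D segments that rose with the block did so by 0.40 at 114719358, 0.38 at Ighd2-7, 0.37 at Ighd2-6, 0.32 at 114695747 and 0.26 at 114687612. The last lies nearest to Ighd4-1 and is the call with the highest p (limma adjusted p = 0.0403). It is closest to Ighd3-2 of mm9 (92.3% identity), and the segment at 114719358 is closest to Ighd1-1 (76.9%). The 7 tested D segments of the stretch that did not pass were rarely used, each at a mean share of at most 0.0636% with IAA.

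Among the 10 that rose, the largest log2 changes lay in the middle part of the array, at 114700407 and 114705399, and smaller ones lay towards both ends; this order was not tested. Ighd4-1 itself did not pass (log2 0.05, SE 0.05, limma with the replicate block, adjusted p = 0.656).

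**Figure D2:**
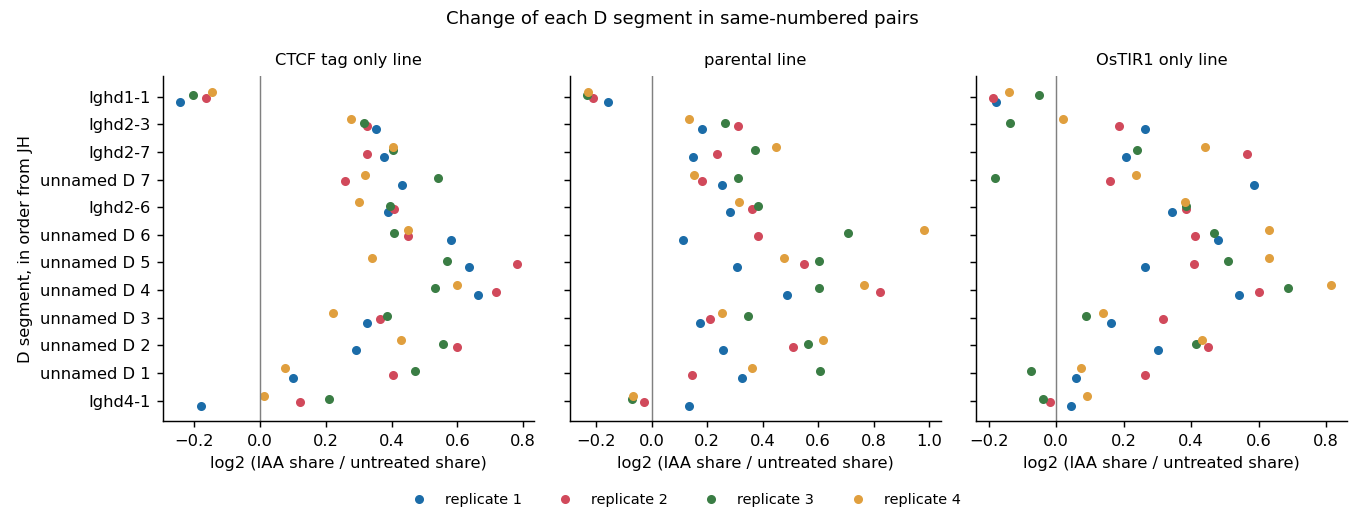
Log2 of the IAA share over the untreated share (x axis) for each same-numbered pair and each of 12 D segments with an untreated mean over 0.1% of junctions, in order from JH (y axis), in the CTCF-tag-only, parental and OsTIR1-only lines; segments without a symbol are numbered in that order. In the CTCF-tag-only line all points of Ighd1-1 lie below 0, and all points of the 10 segments between Ighd4-1 and Ighd1-1 lie above 0.

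Identical junctions were also counted once per library. For this count, junctions were identical if prey chromosome, junction position, strand, bait end and prey alignment bounds were the same. Inserted bases were not compared, so joints that differ only in these also weigh as 1. The Ighd1-1 share was then 46.2%, 55.5%, 49.0% and 50.6% untreated and 37.0%, 48.9%, 43.2% and 45.2% with IAA. It was again lower in 4 of 4 pairs (mean difference −6.75 points; exact permutation p = 0.0571). Repeats by this rule, which are not all copies of the same joint, made up 49.1% ± 5.23 of junctions untreated and 47.4% ± 2.82 with IAA (SD, n = 4 each; difference −1.71 points, interval −10.5 to 8.59; exact permutation p = 0.543). With the block, limma called 13 of 68 segments on these distinct junctions (19.1%), of which 12 were among the 13 called on all junctions: the D segment at 114687612 dropped out, and Ighv5-4 was added, lower with IAA.

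The D segment can also be read inside completed V(D)J joints, in the bases between bait and VH prey. This reading uses other reads than the D-to-JH joints and was added after the data were seen. A D was named where at least 8 bases matched a single class of D cores, which held for 65.6% ± 0.93 of VH junctions with IAA and 67.4% ± 3.54 untreated (SD, n = 4 each). Among these, Ighd1-1 made up 30.7%, 62.2%, 55.5% and 53.1% untreated and 21.5%, 50.9%, 45.1% and 45.4% with IAA. It was lower in 4 of 4 pairs, with differences of −11.3 to −7.695 points, and replicate 1 was far below the others in both treatments. Over groups, the difference of −9.67 points was within the spread (interval −40.8 to 20.2; exact permutation p = 0.371). Without replicates 1 it was −9.81 points, with non-overlapping groups (exact permutation p = 0.1, the smallest that 3 against 3 allow).

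The share of all junctions in the VH region is the readout by which loss of CTCF is followed in this system. In the tag-only line it was 3.72%, 3.09%, 4.25% and 3.81% untreated and 3.71%, 2.76%, 3.92% and 3.34% with IAA. It was lower in 4 of 4 pairs, with differences of −0.47 to −0.01 points (exact sign-flip p = 0.125, the smallest possible), and the groups overlapped. The mean difference was −0.28 points (interval −1.48 to 0.83; exact permutation p = 0.429), or −0.37 without replicates 1 (exact permutation p = 0.5). With identical junctions counted once it was −0.80 points, again lower in 4 of 4 pairs (exact permutation p = 0.2). Leaving out single replicates moved it between −0.49, without untreated replicate 2, and −0.06, without IAA replicate 2; without untreated replicate 3 it was −0.10 and without IAA replicate 3 −0.44. As a log2 ratio of same-numbered pairs it was −0.12 ± 0.08 (SD, n = 4), against −0.04 ± 0.15 for parental cells, −0.38 ± 0.38 with OsTIR1 alone (SD, n = 4 each) and 2.81 ± 0.45 for the CTCF degron line (SD, n = 6). The tag-only effect was below that of the degron line by 2.93 (interval −3.69 to −2.21; two-sided exact permutation of line labels, p = 0.00476, which no split can undercut; adjusted 0.0143 over 3 lines by Benjamini-Hochberg). Without degron replicates 4 and 5 it was below by 2.95 (interval −3.69 to −2.21; exact permutation p = 0.0286, the smallest that 4 against 4 allow). Against the parental and OsTIR1-only lines the differences were −0.07 (interval −0.36 to 0.17; exact permutation p = 0.543) and 0.26 (interval −0.19 to 0.71; exact permutation p = 0.4).

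Within the VH region, Ighv5-2 (VH81X), the proximal segment that pro-B lines use most, took 40.3%, 23.04%, 21.8% and 25.8% of VH junctions untreated and 36.7%, 21.6%, 20.3% and 21.9% with IAA. It was lower in 4 of 4 pairs, with differences of −3.84 to −1.42 points and with replicate 1 far above the rest in both groups (mean difference −2.59 points; exact permutation p = 0.486; −2.26 without replicates 1, exact permutation p = 0.2). As a share of all junctions Ighv5-2 fell by 0.25 on the log2 scale (SE 0.07, limma with the replicate block, adjusted p = 0.0117); without pair 3 or pair 4 this call was lost. Its hybrid position is 114836377, and it lies at chr12:114816715-114817201 in mm9.

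Distal VH junctions went the other way. They were 6.28%, 30.2%, 27.9% and 24.4% of VH junctions untreated and 9.0%, 36%, 31.1% and 30.9% with IAA, higher in 4 of 4 pairs by 2.72 to 6.48 points. The group difference of 4.54 points was far smaller than the spread that replicate 1 brings (interval −21.2 to 29.7; exact permutation p = 0.457), and it was 5.15 points without replicates 1, where the groups did not overlap (exact permutation p = 0.1, the smallest possible). At equal depth 64.9 to 112 VH segments were used untreated and 79.2 to 115 with IAA, the lowest in both groups being replicate 1 (difference 5.68, exact permutation p = 0.571; 2.80 without replicates 1, exact permutation p = 0.5). The first used VH, at 114830805 and closest to Ighv5-9 (91.1% identity), held 1.98% to 3.15% of VH junctions untreated and 1.79% to 3.33% with IAA (difference 0.33 points, or 0.24 without replicates 1). The distal share was also higher with IAA in 4 of 4 parental pairs (mean difference 0.78 points) and 4 of 4 OsTIR1-only pairs (0.48 points). In the CTCF degron line it was higher in 4 of 6 pairs. The Ighv5-2 share was higher in 2 and lower in 2 of 4 pairs in both the parental and the OsTIR1-only line. In the CTCF degron line it was lower in 6 of 6.

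**Figure D3:**
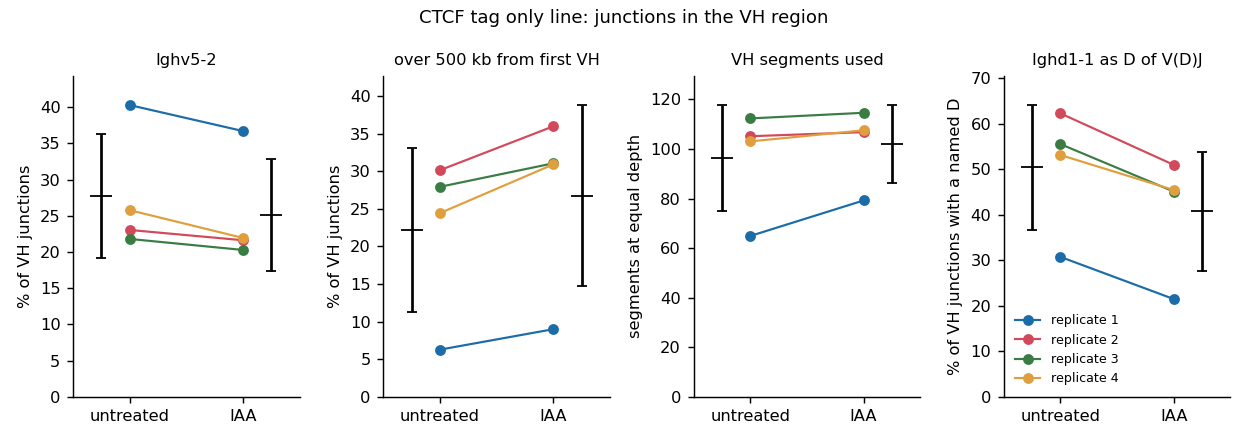
Junctions in the VH region of the CTCF-tag-only line: Ighv5-2 and distal shares (percent of VH junctions), number of VH segments used at equal depth, and Ighd1-1 as the D of V(D)J joints (percent of VH junctions with a named D), with lines joining same-numbered replicates and black marks for mean ± SD (n = 4). Replicate 1 lies apart in every panel, and each panel moves the same way in 4 of 4 pairs.

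Of the 10 VH segments with the highest untreated means, which held 80.3% of junctions at tested VH segments, 5 were lower in 4 of 4 pairs and 0 were higher in 4 of 4. Over all 55 tested VH segments these counts were 10 and 4, and over all 74 segments 11 and 15. The median log2 change of the 10 with the block was −0.18, against 0.07 over all 55 tested VH segments. The 10 were picked by the same untreated values that enter these comparisons, a choice that itself favours lower values with IAA. The 5 were Ighv5-2, Ighv5-4, Ighv5-6, Ighv5-12 and the VH segment at 115055836; of these, only Ighv5-2 passed in the fit with the replicate block on all junctions, and Ighv5-4 passed as well when that fit used median-of-ratios scaling, b libraries alone, or no replicates 1. By distance, 17 VH segments within 500 kb of the first had a median log2 change of −0.22, and 38 farther ones had 0.17. Ighv1-67, a rarely used distal segment at chr12:116842151-116842444 in mm9, had 0.0186%, 0.0230%, 0.0364% and 0.0364% of junctions untreated and 0.0297%, 0.0459%, 0.0656% and 0.0614% with IAA. These shares rest on 168 and 320 junctions in all, and it rose by 0.82 on the log2 scale (SE 0.17, limma with the replicate block, adjusted p = 0.000728).

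**Figure D4:**
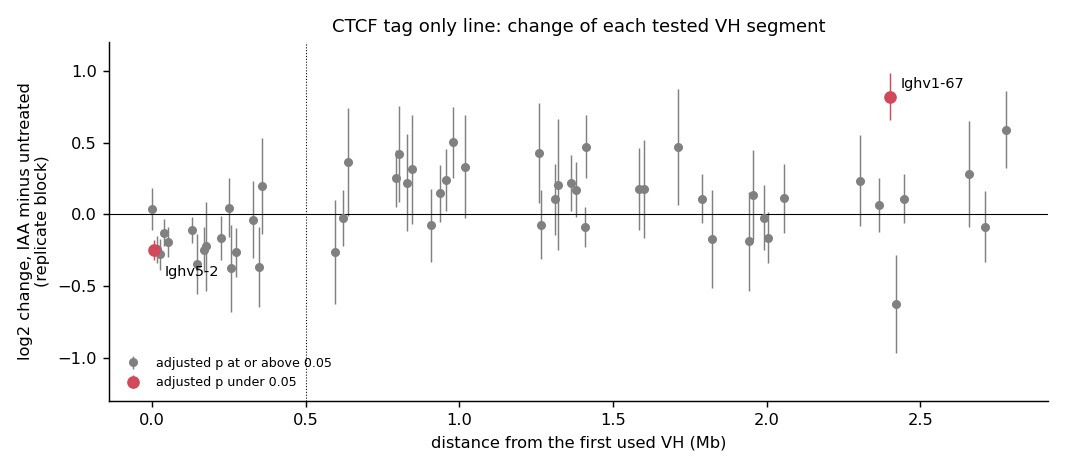
Log2 change with IAA (y axis; points with SE, limma with the replicate block) of the 55 tested VH segments of the CTCF-tag-only line, against distance from the first used VH in Mb (x axis); the dotted line marks 0.5 Mb, and larger red points passed at an adjusted p under 0.05. Only Ighv5-2 (lower) and Ighv1-67 (higher) passed.

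Between the D array and the VH region, the interval from Ighd1-1 to the first used VH, which holds IGCR1 and the last D segments (also counted among the other D segments), took 1.16%, 0.91%, 1.40% and 1.64% of junctions untreated and 1.97%, 1.22%, 1.93% and 2.33% with IAA. It was higher in 4 of 4 pairs (difference 0.59 points, interval −0.42 to 1.42; exact permutation p = 0.0857). The share of this interval was also higher in 4 of 4 parental pairs, at 1.37% to 1.64% untreated and 2.06% to 2.67% with IAA. In the OsTIR1-only line it was higher in 4 of 4 pairs as well (1.07% to 1.64% and 1.41% to 2.11%). In the CTCF degron line it was lower in 6 of 6 pairs. Junctions within the JH cluster were 0.91% ± 0.07 untreated and 0.98% ± 0.09 with IAA (SD, n = 4 each; exact permutation p = 0.229). Junctions on other chromosomes held 0.29% in both groups (difference 0.0034 points, interval −0.07 to 0.12). In the D array, junctions in minus orientation, in which the prey runs opposite to deletional joining, were 0.09% ± 0.04 of D-array junctions untreated and 0.08% ± 0.01 with IAA (SD, n = 4 each; exact permutation p = 0.6).

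The joints themselves also differed in the same direction in each pair. Inserted bases are those between the bait and prey alignments. Terminal transferase (TdT) and palindromic repair can add them, while in VH junctions they also include the D segment. They were present in 73.7%, 74.6%, 69.6% and 79.7% of all junctions untreated and in 76.5%, 79.5%, 74.8% and 81.8% with IAA. The share was higher in 4 of 4 pairs by 2.10 to 5.22 points, and the groups overlapped (difference 3.75 points, interval −4.91 to 12.2; exact permutation p = 0.2). Within D classes the difference was 3.46 points at Ighd1-1, 3.43 at Ighd4-1 and 3.21 at the other D segments, each higher in 4 of 4 pairs.

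Microhomology, where bait and prey ends share bases at the joint, was found in 16.3%, 15.8%, 19.5% and 11.8% of junctions untreated and in 14.8%, 12.3%, 15.8% and 10.3% with IAA. It was lower in 4 of 4 pairs, and the groups overlapped (difference −2.55 points, interval −9.19 to 4.02; exact permutation p = 0.229). The most common joint with 3 shared bases at Ighd1-1 is shown as read, with these bases in capitals, bait to the left and D to the right. Joints with other numbers of shared bases were not ranked.
Ighj4 to Ighd1-1: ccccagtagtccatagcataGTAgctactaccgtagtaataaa
This joint made up 51.4% of reads with 3 shared bases at Ighd1-1. Such reads were 9.25% ± 2.19 of Ighd1-1 junctions untreated and 7.80% ± 1.87 with IAA (SD, n = 4 each), and with identical junctions counted once 3.10% and 2.92%. The bait end had lost 4.66 ± 0.22 bases on average untreated and 4.70 ± 0.25 with IAA (SD, n = 4 each; exact permutation p = 0.743), and this loss was higher in 3 of 4 pairs.

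**Figure D5:**
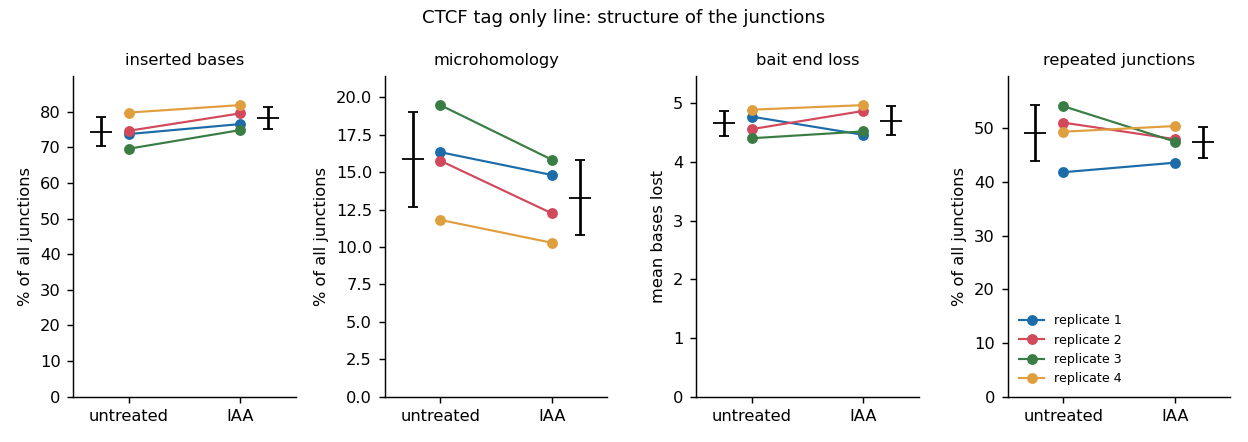
Structure of junctions in the CTCF-tag-only line: percent of junctions with inserted bases, percent with microhomology, mean bases lost from the bait end, and percent of repeated junctions, with lines joining same-numbered replicates and black marks for mean ± SD (n = 4). Inserted bases are higher and microhomology is lower with IAA in 4 of 4 pairs; the other measures cross.

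The lines without the tag give the same measures where IAA has no mAID-tagged protein to act on. Same-number correlations were 0.66 to 0.87 in the OsTIR1-only line. There replicates 1 and 2 lay in 1 sequencing run and replicates 3 and 4 in another, in both treatments. Pairing by number was therefore not told apart from a shared run in that line. Replicate numbers did not clearly pair the samples of the parental line (0.05 to 0.29) or the CTCF degron line (−0.10 to 0.65), where pairs share only a number. In the parental line the Ighd1-1 share was 60.3% to 61.6% untreated and 51.3% to 55.2% with IAA, with no overlap of the groups, lower in 4 of 4 pairs with differences of −9.09 to −6.395 points. In the OsTIR1-only line it was 46.4% to 60.8% and 44.8% to 53.4%, lower in 4 of 4 pairs with differences of −7.40 to −1.64 points. The log2 ratio of same-numbered pairs was −0.19 ± 0.04 with the tag only, −0.21 ± 0.04 for parental cells and −0.14 ± 0.06 with OsTIR1 alone (SD, n = 4 each). The tag-only effect differed by 0.02 from the parental one (interval −0.09 to 0.09; exact permutation of line labels, p = 0.571) and by −0.05 from the OsTIR1-only one (interval −0.19 to 0.04; exact permutation p = 0.257), a test added after the data were seen. In the CTCF degron line the ratio was −1.18 ± 0.22 (SD, n = 6), a difference of 0.99 (interval 0.65 to 1.37; exact permutation p = 0.00476, again the lowest value available; adjusted 0.0143). Without degron replicates 4 and 5 this difference was 0.88 (interval 0.65 to 1.05; exact permutation p = 0.0286). With identical junctions counted once, the ratio was −0.21 ± 0.07 with the tag only and −0.18 ± 0.14 for parental cells (SD, n = 4 each). The parental pairs then ran from −0.35 to −0.03. With OsTIR1 alone it was −0.12 ± 0.10 (SD, n = 4), from −0.21 to 0.02, so not every pair of that line was lower. Untreated parental replicates 1 and 2 shared the sequencing run of the tag-only libraries, while IAA parental replicates 1 and 2 lay in another, so run and treatment are partly mixed there. All OsTIR1-only and CTCF degron libraries lay in other runs, with both treatments in each.

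Of the D segments between Ighd4-1 and Ighd1-1, 15 were tested in the parental line, and 8 rose and 0 fell without a block (background 28.1% of 32 segments called; 9 rose with the block, background 37.5%). In the OsTIR1-only line 13 were tested, and without a block 1 rose and 0 fell (background 4.35% of 23 segments). With the replicate number as a block, 7 rose and 1 fell (background 56.5%). The D segment at 114700407 had log2 changes of 0.68 in the parental and 0.68 in the OsTIR1-only line with the block, and Ighd1-1 of −0.22 and −0.14. The inserted-bases share was higher with IAA in 4 of 4 parental pairs and in 2 of 4 OsTIR1-only pairs. In OsTIR1-only replicates 1 and 2 it was 77.6% and 77.3% untreated and 79.5% and 79.3% with IAA. The pairs that were lower were replicates 3 and 4, at 34.1% and 34.7% untreated and 29.1% and 28.1% with IAA. Those replicates lay in another sequencing run than replicates 1 and 2, and the part of the run was not tested. The Ighd1-1 share of D segments inside V(D)J joints was lower in 4 of 4 pairs in both lines, at 29.5% ± 1.54 against 23.4% ± 2.60 in the parental and 24.4% ± 8.74 against 19.8% ± 4.94 in the OsTIR1-only line (untreated against IAA; SD, n = 4 each).

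Tested segment by segment, the IAA effect of the tag-only line differed from that of the parental line at 0 of 54 segments (0.0%; 0 at an unadjusted p under 0.05) and from that of the OsTIR1-only line at 0 of 51 (0.0%; 0 at an unadjusted p under 0.05), by limma's interaction term. With the replicate block the second count was 1, Ighd2-3, whose effect was higher by 0.30 in the tag-only line (SE 0.07, limma adjusted p = 0.0473); the first stayed at 0, with 5 at an unadjusted p under 0.05. Against the CTCF degron line 50 of 76 segments differed (65.8%), 49 of them with a lower effect in the tag-only line. The 1 exception was Ighd1-1, higher by 0.997 in the tag-only line (SE 0.16, limma adjusted p = 1.02e-05). That split depends on the scale: with median-of-ratios scaling 32 differed, 16 in each direction. Without degron replicates 4 and 5, 41 of 75 differed.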

How the data were processed

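Each deposited file lists junction reads one by one, without counts; the values used are other per-read columns (prey position, strand, alignment bounds, sequence) as the authors deposited them. Reads were aligned to a hybrid of AJ851868 and mm9, per the labels, and Bowtie2 is named in the submitters' processing notes, with no version given in the sources used here. Positions are 1-based hybrid coordinates; the constant offset of a and b libraries was measured with 30-base words (at least 99.97% of matches at 1 offset in each tag-only library) and removed. Peaks were named with blastn 2.17.0 against mm9 V and D segments (178 segments, 150 VH and 28 D), and a junction was assigned within 100 bp. A replicate is the mean of its a and b libraries, or their sum for single segments. Shares were compared by two-sided exact permutation tests, with intervals by inversion, and by sign flips over pairs. Segments were tested with limma 3.58.1 in R 4.3.3 (voom, library total as scale, pseudocount 0.5, minimum mean of 10 junctions, Benjamini-Hochberg adjusted p under 0.05), without and with the replicate number as a block. The fit was tested on simulated data with planted changes larger than those called with the block on all junctions. That test does not cover changes of the size called here. Pairs follow the replicate numbers in the titles, and same-numbered replicates of the tag-only line correlated over 0.1 in every pair. Segments named are all tested D, the VH nearest the D array among those seen in all untreated replicates, the 10 VH highest untreated, and any called without or with the block or with identical junctions once. Alternatives were once-counting, a or b alone, other scalings, filters, windows and denominators, and leaving out replicates. The comparison, lists and measures were chosen with earlier results of these data known. Off-target lists were not used. Intervals cover the spread of replicates; PCR copies are not independent molecules.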

Additional observations from a re-analysis of the deposited data

Results flagged for a closer look

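Among 32 groups of 4 replicates checked, 3 held a replicate far from the others; chance gives about 1 in 20. The share of D-array junctions in minus orientation was 0.149% in untreated replicate 1 against 0.0735% to 0.0775% in the others. The Ighv5-2 share of VH junctions was 36.7% in IAA replicate 1 against 20.3% to 21.9%. The share of VH junctions at the first used VH was 3.15% in untreated replicate 4 against 1.98% to 2.02%.

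IAA effects differed between the tag-only and CTCF degron lines in 3 results: the VH share, by −2.93 on the log2 scale, the Ighd1-1 share, by 0.99, and single segments, of which 50 had an effect unlike that of the degron line. The lines were sequenced in different runs, and the part of the run was not tested.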

How the results depend on the processing

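Of 215 recomputations of the 16 measures, 200 kept direction and side of the threshold. With identical junctions counted once the Ighd4-1 difference was −0.19 and that of other chromosomes −0.00835; the latter was −0.00134 in b libraries and −0.0211 without both replicates 1. Leaving out single replicates gave −0.0173 to 0.522 for Ighd4-1, −0.0244 to 0.000632 for minus orientation, −0.0218 to 0.0180 for other chromosomes, −6.45 to 1.60 for Ighv5-2, −0.77 to 10.46 for distal VH, −4.81 to 13.3 for VH segments used and −0.0391 to 0.130 for bait end loss. For Ighv5-2, distal VH and VH segments used the sign turned only without untreated replicate 1. The added test of the Ighd1-1 effect against the parental line turned to −0.0309 with identical junctions counted once.

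The count of called segments was 0 in every fit without the replicate block, leave-one-out fits included, and 13 with it. It was 13 with identical junctions once and the block, 14 with median-of-ratios scaling and the block, and, in fits added after the data were seen, 17, 12, 11 and 12 without pairs 1 to 4 and 11 and 14 in a and b libraries alone; between 9 and 11 of them were D segments between Ighd4-1 and Ighd1-1, all higher. Segments unlike the CTCF degron line numbered 32 with median-of-ratios scaling against 50, and those unlike the OsTIR1-only line 1 with the replicate block against 0. The block gave the same mean differences for the shares, and for these 4 pairs no p below 0.125 is possible. In the interaction fits it gave 59 segments unlike the CTCF degron line, against 50, and 0 unlike the parental line, as without it.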
